A study of Mus musculus with 6 samples.

Results

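Phase II conjugation enzymes attach a polar group to drugs, hormones, bile pigments and reactive metabolites so that the products can leave the liver in bile or urine. The genes described here are the UDP-glucuronosyltransferases (Ugt1, Ugt2 and Ugt3), the sulfotransferases (Sult) and the cytosolic glutathione transferases (Gsta, Gstm, Gstp, Gstt, Gstk, Gsto and Gstz). They were chosen by symbol, without the pseudogene Gstp-ps, which gave 55 of the 21512 genes in the table: 19 Ugt, 16 Sult and 20 Gst genes. The study sequenced whole-liver RNA of C57BL/6J mice that all received a high-fat diet and CCl4 for 12 weeks, a model of metabolic steatohepatitis with fibrosis. During that time 3 mice were given an isotype control antibody and 3 an anti-PD-1 antibody, every 3 days. The comparison asks what blocking PD-1, an inhibitory receptor of T cells, does to RNA levels in such livers. The titles name PD-1 for the 3 treated mice, whereas the treatment field of replicates 2 and 3 carries a different number after "PD", which was read as a fill error. Age and sex are not stated in the labels, and no group without diet or CCl4 was analysed here.

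UDP-glucuronosyltransferases use UDP-glucuronic acid, sulfotransferases use the activated sulfate PAPS, and glutathione transferases use glutathione. In liver the 3 groups sit mainly in hepatocytes. Many of their genes are known targets of the xenobiotic receptors PXR, CAR and AHR and of the oxidative stress factor NRF2, and some are known to differ between male and female mice.

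Values are CPM, reads scaled to a library total of 1000000 after adjustment by the trimmed mean of M-values, with 1 library per mouse. Series of 6 values run from isotype control replicates 1 to 3 to anti-PD-1 replicates 1 to 3. Fold changes are anti-PD-1 minus control on the scale log2(CPM + 0.5), with the standard error (SE) from limma, and they understate changes of low genes. Depth was 15528364 to 20779319 reads, and 3 reads corresponded to 0.144 to 0.2 CPM, a limit that covers counting error only. The hepatocyte gene Alb stood at 46646 to 69086 CPM in the 6 libraries, and Y-linked Ddx3y at 92.5 to 152 CPM with Xist at 0.162 to 1.03 CPM in every library. The P-values measure the spread between these 3 mice per group, and an exact permutation test of 3 against 3 could not go below 0.1. In whole tissue, fewer cells of a type and less RNA per cell cannot be told apart.

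The Ugt1a genes need a word on sequence before their values are read. On chromosome 1 of GRCm38 (an older build than the one named for these data) each has 1 or 2 exons of its own, and all 9 transcripts then use exons that begin at the same 4 positions, from base 88215044 on. In GENCODE transcripts 1313 bases were identical in all 9. The lines below show 60 bases across that boundary, 5′ to 3′, for Ugt1a1, Ugt1a9 and 4 genes alike in pairs over these bases. Lower case is each gene's own part and capitals are the shared part. The last 2 bases of each own exon are also common to all 9 and are in capitals.
Ugt1a1: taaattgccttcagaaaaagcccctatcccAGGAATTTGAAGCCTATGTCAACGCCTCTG
Ugt1a9: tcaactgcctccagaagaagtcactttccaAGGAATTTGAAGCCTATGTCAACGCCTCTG
Ugt1a6a: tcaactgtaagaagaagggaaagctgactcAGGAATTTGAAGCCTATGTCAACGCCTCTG
Ugt1a6b: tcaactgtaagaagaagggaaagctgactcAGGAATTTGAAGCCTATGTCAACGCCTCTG
Ugt1a2: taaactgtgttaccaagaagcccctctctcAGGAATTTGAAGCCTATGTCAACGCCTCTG
Ugt1a5: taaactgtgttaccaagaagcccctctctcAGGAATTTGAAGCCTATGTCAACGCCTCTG
The printed own parts of Ugt1a6a and Ugt1a6b are the same, as are those of Ugt1a2 and Ugt1a5. Of all 100-base windows in a transcript, 57.2% were shared with another gene for Ugt1a1, 58.5% for Ugt1a9, 71.5% for Ugt1a6b and 100% for Ugt1a6a. For Ugt1a6a, 100% of windows occurred in transcripts of Ugt1a7c and 71.4% in those of Ugt1a6b. How reads in shared sequence were divided is not given in the sources used here, so single Ugt1a values are uncertain, Ugt1a6a and Ugt1a6b above all.

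Of the 55 genes, 45 reached 1 CPM in at least 3 libraries and were tested, among 13990 genes in all. The other 10 were Ugt1a8 and 9 Sult genes. By limma with Benjamini-Hochberg adjustment over the 13990 genes, none of the 45 passed 0.05 in either direction, where 0.00715% of all tested genes were called higher and 0% lower. At an unadjusted p under 0.05 there was 1 member higher (5.04% of all tested genes) and 6 lower (6.24% of all tested genes), which is 2.22% and 13.3% of the 45. By edgeR no member was called (0% of all tested genes were called lower), with 1 higher (5.68% of all tested genes) and 5 lower (5.95%) at an unadjusted p under 0.05. DESeq2 called 1 member lower (0.786% of all tested genes), Gsta3, with 2 higher (6.25%) and 5 lower (5.18%) at an unadjusted p under 0.05. With a replicate block limma called 1 lower (0.0929% of all tested genes), Ugt1a9. With plain library sizes the unadjusted counts were 2 higher (4.49% of all tested genes) and 5 lower (6.09%).

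The direction leaned to lower values but depended on single mice. Negative fold changes were found for 29 of 45 members (64.4%), against 49.5% of all tested genes, and the median was -0.10 against 0.00266. Without anti-PD-1 replicate 1 the split was 23 negative to 22 positive and the median -0.02. Leaving out that library also raised the unadjusted counts to 4 higher (8.03% of all tested genes) and 10 lower (7.14%). The 6 lower became 1 when anti-PD-1 replicate 2 was dropped (4.95% of all tested genes) and 2 when its replicate 3 was (3.88%). Dropping isotype control replicate 1 left 1 (4.32%), and dropping control replicate 3 left 0 (4.72%). These subsets had 43 to 45 members past the filter. No test of the list as a whole was made.

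The 3 anti-PD-1 values lay above all 3 control values for 2 members, Gsto1 and Ugt3a2 (7.13% of all tested genes), and below them for 3, Gsta3, Gstm4 and Ugt2b38 (9.98% of all tested genes). As shares of the 45 these are 4.44% and 6.67%, both under the background. With quantile normalization the counts were 1 above (6.59% of all tested genes) and 9 below (12.4%), which is 2.22% and 20% of the 45. With plain library sizes they were 3 above (7.31% of all tested genes) and 5 below (10%), which is 6.67% and 11.1% of the 45. With quantile normalization the share below was over the background and the share above was under it. With plain library sizes both shares were close to the background. Dropping anti-PD-1 replicate 1 gave 9 members above (20% of the 45) and 13 below (28.9%). Among all tested genes the shares rose too, to 17.8% above and 16.6% below, and 2 libraries overlap less easily with 3. How much of the rise among the members comes from this was not tested.

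**Figure D1:**
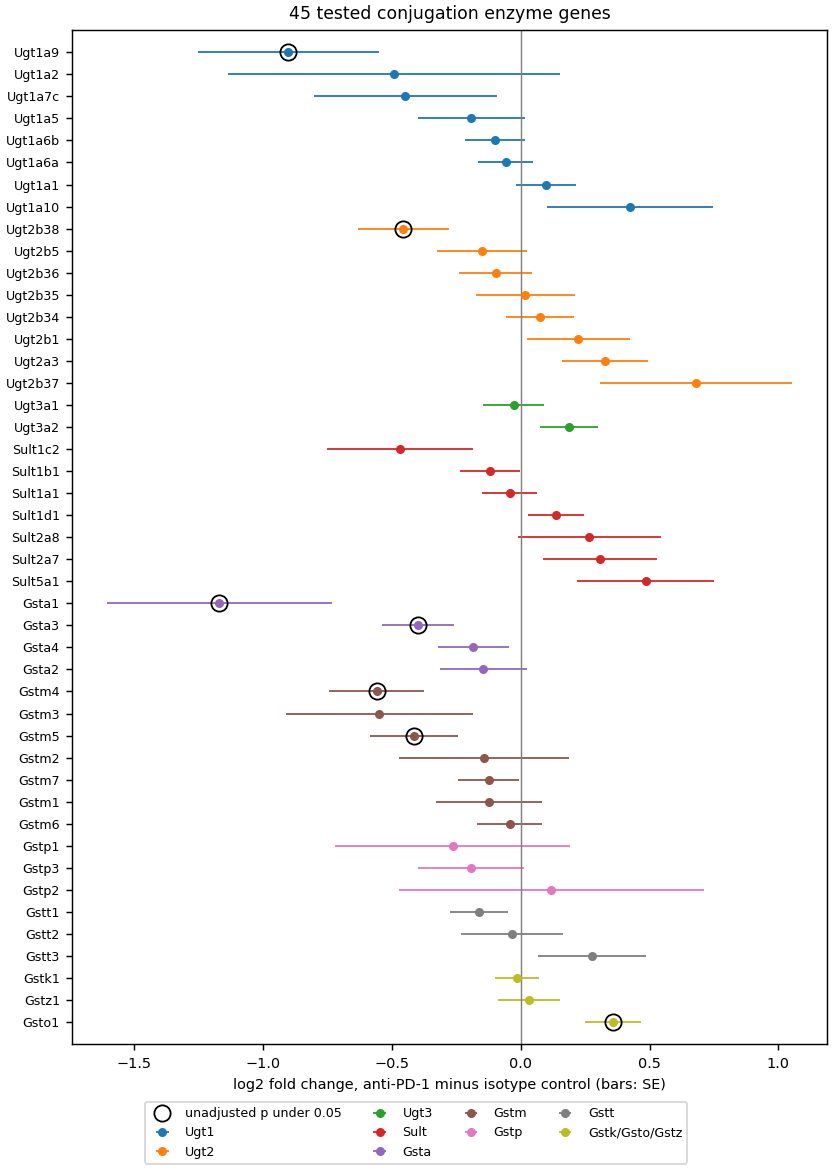
Log2 fold change of each tested conjugation gene (x axis, anti-PD-1 minus isotype control, bars are the SE from limma), ordered and coloured by family, with an open ring where the unadjusted p is under 0.05. All 4 Gsta and all 7 Gstm points lie left of 0, the Ugt and Sult points lie on both sides, and 7 genes carry a ring.

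Among the glutathione transferases, 16 of 20 fold changes were negative, and in the alpha class all 4 were. The summed level of the 4 Gsta genes was 1627, 1413 and 1546 CPM in the controls and 1134, 1089 and 1274 CPM after anti-PD-1. Every treated library was below every control library, and the group means were 1529 ± 108 and 1166 ± 96.5 CPM (SD, n = 3), a ratio of 0.762. All 4 members were negative under plain library size and quantile scaling and without each library in turn.

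Gsta3 (ENSMUSG00000025934), an alpha-class transferase of mouse liver known for conjugating the aflatoxin epoxide, made up 95.1% of that sum and had the highest level per kilobase of transcript of all 55 genes (880 CPM per kb). It stood at 1551, 1353 and 1467 CPM in the controls and at 1064, 1034 and 1220.5 CPM after anti-PD-1. The groups did not overlap. The log2 difference came to -0.40 ± 0.14 (SE; limma adjusted p = 0.366). The adjusted p was 0.326 by edgeR and 0.0421 by DESeq2, so the call rests on the last tool. No 100-base window of its transcript was shared with another gene.

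Gsta1 (ENSMUSG00000074183), an inducible alpha-class gene, was low at 8.47, 5.95 and 13.0 CPM in the controls and 7.54, 2.40 and 2.43 CPM after anti-PD-1. Anti-PD-1 replicate 1 lay among the controls and the other two treated libraries below them. The log2 difference was -1.17 ± 0.44 (limma adjusted p = 0.385). For this gene 81.8% of windows were shared, most of them with the gene model Gm3776, which was at 3.78, 3.84 and 7.64 CPM and 3.55, 3.20 and 2.07 CPM. Gsta4, which conjugates the lipid peroxidation product 4-hydroxynonenal, was at 44.7, 32.2 and 40.2 CPM and 35.8, 35.0 and 31.4 CPM (-0.18 ± 0.14, limma adjusted p = 0.648). Those ranges overlapped, as did those of Gsta2 (-0.15 ± 0.17).

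To set the regulator NRF2, described below, beside a promoter, the 250 bases before the RefSeq start site are printed for Gsta3, the most abundant member (build GRCm38.p6, plus strand, 5′ to 3′). Capitals mark the match to the antioxidant response element core TGACNNNGC, to which NRF2 binds, searched on both strands.
Gsta3 promoter, chr1:21240335-21240584: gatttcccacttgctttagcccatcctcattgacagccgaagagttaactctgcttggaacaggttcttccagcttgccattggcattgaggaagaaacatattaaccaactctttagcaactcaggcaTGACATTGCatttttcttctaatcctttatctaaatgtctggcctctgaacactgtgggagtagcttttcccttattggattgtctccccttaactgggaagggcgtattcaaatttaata
In Gsta3 the antioxidant core begins at base -121 from the start site. RefSeq promoters of 300 bases (250 before and 50 after the start) were at hand for 47 of the 55 genes, 57 promoters in all. TGACNNNGC was found in 3 of the 57 (5.26%), those of Gsta3, Gstm5 and Gstm7, against 12.4% of 32851 promoters. The xenobiotic response element core GCGTG, to which AHR binds, searched in the same way, was found in 13 (22.8%), against 32.4% of all. A match is a description of letters and not a bound site.

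In the mu class, all 7 fold changes were negative, also under plain library size and quantile scaling, but 4 of 7 without anti-PD-1 replicate 2 and 6 of 7 by DESeq2. Gstm1, the main mu-class gene of mouse liver and 76.9% of the family sum, was at 977, 865 and 1028 CPM in the controls and 1196, 712 and 792 CPM after anti-PD-1. The treated libraries surrounded the controls (-0.12 ± 0.21, limma adjusted p = 0.854), and the difference was 0.03 without anti-PD-1 replicate 2. Gstm3 had the same layout, with 108, 75.0 and 98.8 CPM and 120.2, 41.6 and 50.6 CPM (-0.55 ± 0.36, limma adjusted p = 0.605). Anti-PD-1 replicate 1 was the highest of the 6 libraries for both genes and replicate 2 the lowest. In that highest library the monocyte-derived macrophage markers summed to 856 CPM, the neutrophil markers to 33.6 CPM and the T cell markers to 27.4 CPM. The same sums were at most 287, 8.01 and 2.43 CPM in the controls, and their part in the values was not tested. Lyz2 alone gave 768 of the 856 CPM. In anti-PD-1 replicate 1, Lyz2, Ccr2, Ly6c2 and Itgam lay above all controls, while Trem2 and Cd9 lay within the control range. These macrophage markers were chosen for mention after their values were seen.

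Of the mu genes at lower levels, Gstm4 and Gstm5 had an unadjusted p under 0.05 by limma. Gstm4 (ENSMUSG00000027890) was at 43.5, 39.7 and 48.2 CPM in the controls and 39.7, 24.6 and 26.1 CPM after anti-PD-1. Its highest treated value lay just under its lowest control, so the absence of overlap is nominal. The log2 fold change reached -0.56 ± 0.19 (limma adjusted p = 0.348) and was -0.43 with anti-PD-1 replicate 2 left out. Leaving out its replicate 1 gave -0.77 (limma adjusted p = 0.0771). Gstm5 (ENSMUSG00000004032), a mu-class gene better known from brain and testis, was at 9.55, 7.30 and 9.55 CPM and 7.40, 5.99 and 6.00 CPM. Its groups overlapped by a small margin, at -0.41 ± 0.17 (limma adjusted p = 0.419). Neither gene shared a 100-base window with another gene.

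The pi class was dominated by 1 control mouse. Gstp1, the pi-class transferase known to be higher in livers of male mice, was at 1217, 383 and 444 CPM in the controls and 315, 679 and 559.9 CPM after anti-PD-1. Isotype control replicate 1 held the highest value and anti-PD-1 replicate 1 the lowest. The difference of -0.26 ± 0.46 (limma adjusted p = 0.858) was 0.26 when isotype control replicate 1 was left out and 0.06 when anti-PD-1 replicate 1 was, so it had no stable sign. Gstp1 shared 52.8% of its windows, mainly with its neighbour Gstp2, which was at 1.11 to 8.09 CPM. Gstp3 was at 13.8, 10.4 and 10.2 CPM and 9.22, 8.06 and 12.9 CPM (-0.19 ± 0.20). A list of 10 other male-biased liver genes summed to 6973 CPM in isotype control replicate 1 and to 2661 CPM in anti-PD-1 replicate 1. These were the second highest and the lowest of the 6 libraries. Mup20 alone gave 5582 and 2086 CPM of these sums and was chosen for mention after its values were seen. Of the 9 tested genes of the list, 6 had positive and 3 negative fold changes. The part of the list in the Gstp1 values was not tested.

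Of the remaining classes, Gsto1 (ENSMUSG00000025068) had the smallest p of all 45 genes by limma without the block, whereas Gsta3 had it by DESeq2 and Ugt1a9 with the replicate block. This omega-class enzyme reduces dehydroascorbate and methylated arsenic rather than conjugating drugs. It stood at 41.3, 36.7 and 41.3 CPM in the controls and 50.2, 46.9 and 56.2 CPM after anti-PD-1. Each treated library was above each control, with means of 39.7 ± 2.65 and 51.1 ± 4.72 CPM (SD, n = 3). The log2 difference was 0.36 ± 0.11, with a limma adjusted p of 0.311, and it ranged from 0.29 to 0.42 when single libraries were left out. Gstz1, the isomerase of tyrosine breakdown, was at 504, 487 and 514 CPM and 449, 539 and 557 CPM, and its groups overlapped (0.03 ± 0.12, -0.05 with quantile normalization). Gstk1, the mitochondrial and peroxisomal kappa form, had the smallest SE of the 45, at 76.7, 78.4 and 78.3 CPM and 77.2, 73.6 and 80.5 CPM (-0.01 ± 0.09).

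The theta class also overlapped between groups. Gstt1, which acts on small halogenated compounds, was at 116, 113 and 131 CPM and 117, 95.3 and 110.3 CPM (-0.16 ± 0.11, limma adjusted p = 0.624). Gstt3 was at 36.7, 39.2 and 47.1 CPM and 67.3, 37.3 and 48.4 CPM (0.28 ± 0.21, limma adjusted p = 0.649). Its highest value was again in anti-PD-1 replicate 1, and the difference was 0.06 without that library.

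**Figure D2:**
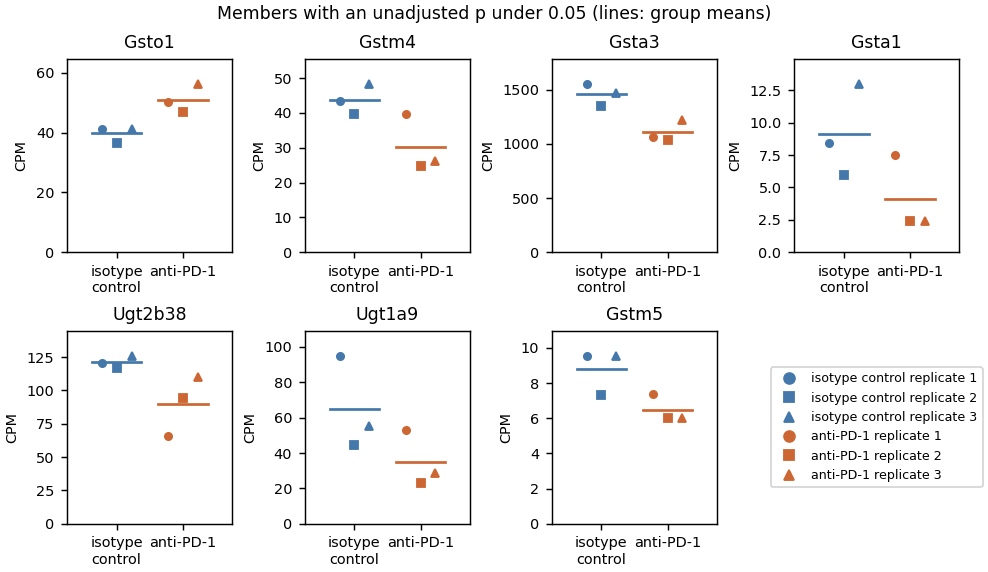
CPM (y axis, from 0) of the 7 members with an unadjusted limma p under 0.05 in each of the 6 libraries, with marker shape for the replicate number and a line at each group mean. Gsto1 is higher and Gsta3, Gstm4 and Ugt2b38 are lower in every treated library than in every control, while the points of Gsta1, Ugt1a9 and Gstm5 overlap.

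The summed Ugt1 level was close in both groups, at 853, 867 and 869 CPM in the controls and 822, 785 and 882 CPM after anti-PD-1. Ugt1a1, which conjugates bilirubin, supplied 47.9% of it, with 372, 426 and 377 CPM and 389, 406 and 463 CPM. The groups overlapped (0.10 ± 0.12, limma adjusted p = 0.784), and quantile normalization gave -0.02. Ugt1a6b, a form for small phenols, was at 137, 133 and 157 CPM and 118, 136 and 145 CPM (-0.10 ± 0.12, limma adjusted p = 0.774).

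Of the 8 tested Ugt1 genes, 6 had negative fold changes. Among them Ugt1a9 (ENSMUSG00000090175), a form known for conjugating phenols, alone had an unadjusted p under 0.05 by limma. It stood at 95.0, 44.7 and 55.0 CPM in the controls and 52.8, 23.1 and 28.7 CPM after anti-PD-1. The highest treated value lay between the controls, but within each replicate number the treated mouse was lower. The fold change was -0.90 ± 0.35 with a limma adjusted p of 0.406, or 0.0385 with the replicate block. It was -0.59 with isotype control replicate 1 left out and -1.24 with anti-PD-1 replicate 1 left out. The pairing behind the block was taken from correlations in these libraries and is not stated in the labels. Of the other tested Ugt1a genes, Ugt1a2, Ugt1a5, Ugt1a6a and Ugt1a7c were negative (-0.49 to -0.06) and Ugt1a10 was positive (0.42), each with overlapping groups.

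Ugt2 genes act mainly on steroids, bile acids and fatty acids, and 5 of the 8 had positive fold changes. This split was not stable, with 4 of 8 positive under plain library size and under quantile scaling. It was 7 of 8 without anti-PD-1 replicate 1 and 2 of 7 without anti-PD-1 replicate 3. The 2 most abundant, Ugt2b5 and Ugt2b36, had nearly equal levels per kilobase (301 and 291 CPM per kb). Ugt2b5 was at 659, 541 and 557 CPM in the controls and 412, 565 and 624 CPM after anti-PD-1. Ugt2b36 was at 622, 534 and 543 CPM and 454, 532 and 608 CPM. In both genes isotype control replicate 1 was highest and anti-PD-1 replicate 1 lowest, and both differences (-0.15 ± 0.18 and -0.10 ± 0.14) were above 0 without that treated library (0.02 and 0.01).

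Ugt2b38 (ENSMUSG00000061906), which shared 24.2% of its windows with other genes, mainly Ugt2b5, was at 121, 116.5 and 126 CPM in the controls and 66.2, 94.1 and 109.7 CPM after anti-PD-1. All treated libraries lay below all controls. The difference of -0.46 ± 0.18 (limma adjusted p = 0.400) was -0.25 without anti-PD-1 replicate 1. The largest positive value among Ugt2 genes above 100 CPM was that of Ugt2a3, with 223, 239 and 240.0 CPM and 227, 307 and 360.3 CPM (0.33 ± 0.17, limma adjusted p = 0.509). Here anti-PD-1 replicates 2 and 3 lay above the controls and replicate 1 among them. Ugt2a3 was chosen for mention after its values were seen.

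The Ugt3 enzymes are known in humans to use sugar donors other than UDP-glucuronic acid. Ugt3a2 was at 246, 218 and 246 CPM in the controls and 250.4, 259.7 and 299.8 CPM after anti-PD-1. The groups did not overlap, but the margin was small (0.19 ± 0.11, limma adjusted p = 0.572). Ugt3a1 was at 72.7, 71.6 and 68.6 CPM and 66.9, 62.1 and 81.1 CPM (-0.03 ± 0.12), with overlap.

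**Figure D3:**
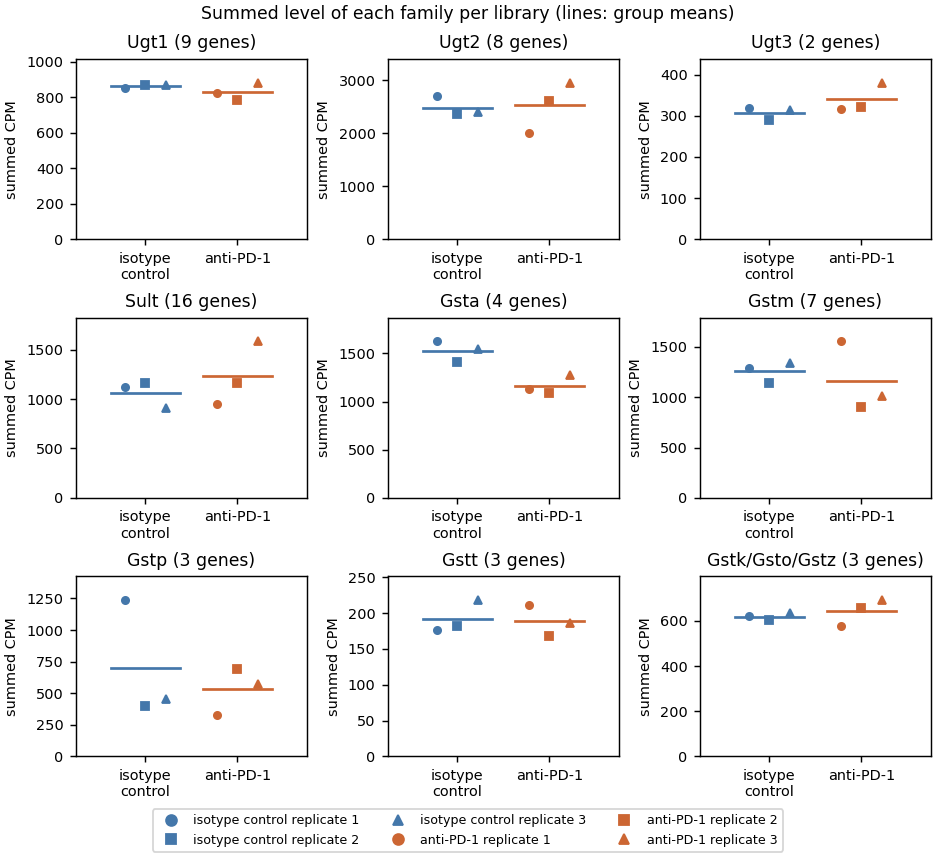
Summed CPM of all members of each family (y axes from 0, each panel with its own range) in the 6 libraries, with a line at each group mean. The Gsta sums of the 3 treated libraries (1134, 1089 and 1274) lie below those of the 3 controls, and the points of the other 8 families overlap between groups.

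Sulfotransferase RNA was carried by a few genes, and 9 of the 16 stayed under the filter. Sult2a8, a liver sulfotransferase of bile acids, made up 65.0% of the family sum. It was at 719, 772 and 506 CPM in the controls and 546, 785 and 1142 CPM after anti-PD-1. Anti-PD-1 replicate 3 held the highest value and isotype control replicate 3 the lowest. The difference of 0.27 ± 0.28 (limma adjusted p = 0.750) was -0.0006 without anti-PD-1 replicate 3. Sult1a1, which acts on simple phenols, was at 209, 215 and 233 CPM and 205, 199 and 234 CPM (-0.04 ± 0.11, limma adjusted p = 0.906). The other 5 tested Sult genes had differences from -0.47 (Sult1c2) to 0.48 (Sult5a1), all with overlapping groups.

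Of the untested Sult genes, Sult2a2 and Sult2a1 had most of their reads in 1 library. Sult2a2, a hydroxysteroid sulfotransferase of a female-biased group, was counted at 8, 4 and 5 reads in control mice and at 68, 4 and 6 reads in treated mice. Sult2a1 had 7, 3 and 2 reads and 27, 1 and 1 reads. Both were highest in anti-PD-1 replicate 1, and the transcripts share windows (34.6% of those of Sult2a2 and 11.4% of those of Sult2a1 occur in another gene). A list of 10 other female-biased liver genes summed to 183.5, 257 and 323 CPM and 288, 115 and 212 CPM. That sum was highest in isotype control replicate 3, followed by anti-PD-1 replicate 1. Of the 5 tested genes of the list, 1 was positive and 4 negative, with 2 lower at an unadjusted limma p under 0.05. Sult1e1, which inactivates oestrogens, was counted at 3, 10 and 3 reads in control mice and at 20, 11 and 12 reads in treated mice. Its treated values (0.621 to 0.961 CPM) lay above the controls (0.151 to 0.541 CPM), at a depth where a few reads decide. The remaining low genes, Sult2a3, Sult2a5, Sult2b1, Sult3a1, Sult4a1, Sult6b1 and Ugt1a8, had 0 to 18 reads per library.

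**Figure D4:**
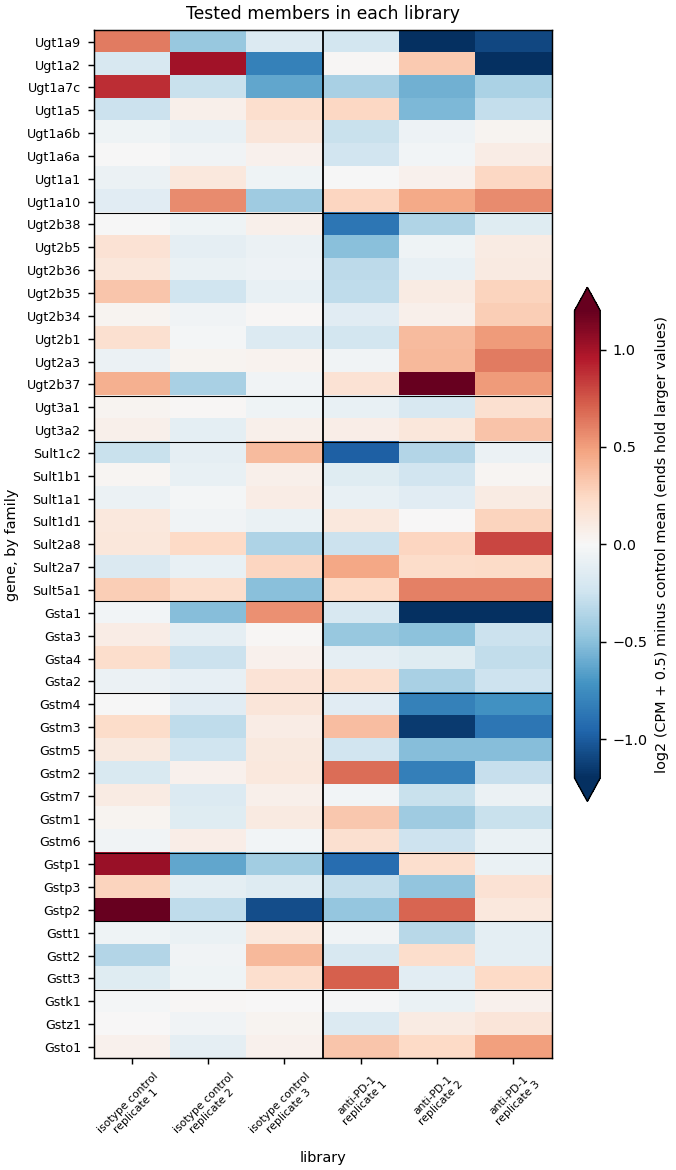
Deviation of each tested member from its control mean on the log2(CPM + 0.5) scale (colour, red above and blue below, colours saturating at the ends of the bar) in the 6 libraries, with genes grouped by family. Anti-PD-1 replicate 2 is the lowest library for 18 of 45 genes and anti-PD-1 replicate 1 for 11, while anti-PD-1 replicate 3 is the highest for 13, so the 3 treated columns differ from each other as well as from the controls.

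The treated mice thus differed among themselves. Of the 45 genes, 18 had their lowest value in anti-PD-1 replicate 2 and 11 in replicate 1, whereas 13 had their highest value in replicate 3. For the Ugt2 genes the median deviation from the control mean was -0.26 in anti-PD-1 replicate 1 and 0.28 in replicate 3. For the Gstm genes it was 0.19 in replicate 1 and -0.51 in replicate 2. The Gsta median was below the control mean in each treated library, at -0.15, -0.44 and -0.28.

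The enzymes that supply the donors were read from fixed lists. Ugdh, which makes UDP-glucuronic acid, was at 190.1, 185 and 205 CPM in the controls and 144, 140.3 and 141 CPM after anti-PD-1, without overlap. Its log2 fold change was -0.45 ± 0.09 (adjusted p = 0.218 by limma and 0.00227 by DESeq2), and the other 2 genes of that list, Ugp2 and Slc35d1, overlapped between groups (0.00 ± 0.14 and 0.03 ± 0.15). Of 7 genes for PAPS supply, 1 had an unadjusted p under 0.05, the PAPS transporter Slc35b3, at 10.7, 10.4 and 10.6 CPM and 12.1, 15.2 and 14.9 CPM. Its difference was 0.39 ± 0.13 (limma adjusted p = 0.353).

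Of 13 tested genes for glutathione supply and recycling, 5 were positive and 8 negative, with 1 higher and 2 lower at an unadjusted p under 0.05. Cth, which makes cysteine from cystathionine, was at 416, 362 and 322 CPM in the controls and 454, 560.0 and 662 CPM after anti-PD-1. All treated libraries were above all controls (0.60 ± 0.17, adjusted p = 0.279 by limma and 0.0213 by DESeq2). Gclc, the catalytic subunit of the rate-limiting step of glutathione synthesis, was at 325, 212 and 289 CPM and 198, 198 and 216 CPM (-0.41 ± 0.16, limma adjusted p = 0.402). Pgd, a source of NADPH, was at -0.42 ± 0.16 (limma adjusted p = 0.390).

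Other conjugating enzymes outside the 55 genes pointed both ways. Of 13 tested acetyl, methyl and amino acid transferase genes, 4 were positive and 9 negative, with Nnmt (0.71 ± 0.25) and Nat2 (-0.52 ± 0.14) at an unadjusted p under 0.05. Among 6 tested relatives such as the microsomal glutathione transferases, 3 were positive and 3 negative, with Mgst3 at -0.52 ± 0.22. Of 6 tested genes of conjugate export and hydrolysis, 3 were positive and 3 negative, and 0 of them reached an unadjusted p under 0.05 by limma.

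Of 13 tested regulators of these genes, 7 had positive and 6 negative fold changes. At an unadjusted p under 0.05, 0 were higher and 4 lower, with none called by limma. Nfe2l2, which encodes NRF2, was at 123, 84.5 and 72.5 CPM in the controls and 58.7, 47.3 and 34.7 CPM after anti-PD-1. The groups did not overlap, and the fold change was -0.98 ± 0.24 (adjusted p = 0.255 by limma, 0.0385 with the replicate block, 0.264 by edgeR and 0.0145 by DESeq2). Keap1, its inhibitor, was at 41.1, 40.3 and 40.2 CPM and 33.5, 33.6 and 31.4 CPM, again without overlap (-0.30 ± 0.09, limma adjusted p = 0.309). Keap1, like Nr1h4 below, is named for its unadjusted limma p under 0.05, and so after its values were seen.

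Nr1i3, which encodes CAR, was at 50.4, 64.2 and 47.2 CPM in the controls and 35.5, 31.3 and 26.1 CPM after anti-PD-1, without overlap. The difference was -0.79 ± 0.16 (adjusted p = 0.218 by limma and 0.00778 by DESeq2). Nr1h4, the bile acid receptor FXR, was at 121, 125 and 118 CPM and 93.1, 103 and 100.4 CPM, without overlap (-0.30 ± 0.09, limma adjusted p = 0.307). Nr1i2, which encodes PXR, and Ahr pointed the other way and overlapped. Nr1i2 was at 38.7, 45.6 and 47.3 CPM and 44.6, 66.7 and 61.8 CPM (0.38 ± 0.16, limma adjusted p = 0.446), and Ahr differed by 0.19 ± 0.14 (limma adjusted p = 0.649).

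**Figure D5:**
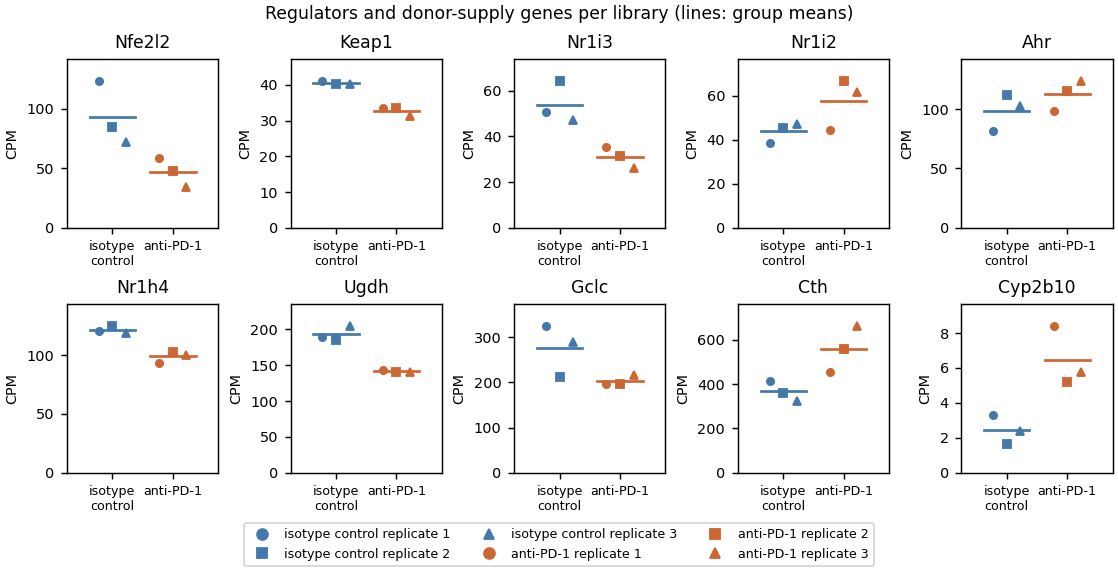
CPM (y axes from 0) of regulators, donor-supply genes and the CAR target Cyp2b10 in the 6 libraries, with marker shape for the replicate number and a line at each group mean. Nfe2l2, Keap1, Nr1i3, Nr1h4 and Ugdh are lower and Cth and Cyp2b10 higher in every treated library than in every control, whereas Nr1i2, Ahr and Gclc overlap.

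Known targets of these regulators outside the conjugation families were mixed. Of 16 NRF2 targets, 5 were positive and 11 negative, and Me1 (-1.09 ± 0.20), Ugdh, Aox1 (-0.46 ± 0.11) and Gclc had an unadjusted p under 0.05. By DESeq2 the adjusted p was 0.000146 for Me1 and 0.0375 for Aox1. The summed list was 2337 to 2736 CPM in the controls and 2077 to 2105 CPM after anti-PD-1. Me1 alone was at 318 to 519 CPM and 164 to 221 CPM. Apart from Me1, Ugdh and Aox1, each gene of the list overlapped between groups. Cyp2b10, a P450 induced through CAR, was at 3.29, 1.62 and 2.41 CPM in the controls and 8.41, 5.19 and 5.79 CPM after anti-PD-1, the direction opposite to that of Nr1i3. Its fold change was 1.26 ± 0.27 (adjusted p = 0.234 by limma and 0.00951 by DESeq2). Tiparp, an AHR target, was at 1.18 ± 0.45 (limma adjusted p = 0.397) with isotype control replicate 3 among the treated values, and Cyp4a14, a PPAR alpha target, at -0.48 ± 0.19 (limma adjusted p = 0.414).

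Conjugation genes also differ along the liver lobule, so zonal markers were read beside them. Of 12 pericentral genes, 6 were positive and 6 negative, with Tbx3 (-1.47 ± 0.23) and Axin2 (-1.72 ± 0.45) at an unadjusted p under 0.05. The limma adjusted p of Tbx3 was 0.135, or 0.0298 with the replicate block. DESeq2 gave adjusted p-values of 7.17e-06 for Tbx3 and 0.0146 for Axin2. Of 13 periportal genes, 12 were positive, with G6pc (0.57 ± 0.15, adjusted p = 0.00214 by DESeq2) and Asl (0.59 ± 0.24) at an unadjusted p under 0.05. The 6 hepatocyte markers summed to 72892 to 97697 CPM in the controls and 69409 to 82519 CPM after anti-PD-1, with overlap. Of 5 Kupffer cell markers, 5 were negative and 4 had an unadjusted p under 0.05, and the T cell markers summed to 1.76 to 2.43 CPM and 5.13 to 27.4 CPM. The cholangiocyte markers summed to 93.4 to 235 CPM and 78.0 to 135 CPM, and the stellate cell markers to 519 to 645 CPM and 575 to 768 CPM. Spp1 gave most of each cholangiocyte sum, and of the 5 cholangiocyte markers 2 were positive and 3 negative. The part of these markers in the Gsta, Gstm and Ugt values was not tested.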

How the data were processed

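The members and gene lists were chosen with earlier results of these data known. The deposited signal is 1 value per gene and library, and tools listed by the submitters' processing notes, without roles, are edgeR, Bowtie2, RSEM 1.3.0 and Trimmomatic 0.38, with the build GRCm39. The labels' protocols name ribosomal RNA depletion and a directional library kit. Values were whole multiples of 1 read in 100% of entries (within 0.001 read), and their scale equalled reads scaled to a library total of 1000000 with TMM factors recomputed from those reads, so they are called CPM. Symbols came from a table of names (21407 identifiers matched). Columns were mapped by name, with groups from the titles.

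limma 3.58.1 (R 4.3.3) with an intensity trend was fitted to log2(CPM + 0.5) of genes with at least 1 CPM in at least 3 libraries (two-sided; adjusted by Benjamini-Hochberg; threshold 0.05). The recovered reads also went through DESeq2 1.42.0 and edgeR 4.0.16. The scripts were tested on simulated data. Alternatives changed the pseudocount, filter, scaling, trend and tool, used the replicate number as a block, and left out each library.

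Same-numbered libraries of the 2 groups deviated together (correlations of 0.149, 0.135 and 0.25). By the rule in use (all over 0.1) this pairs them, although the labels name no shared litter or day. The pairing was read from the same libraries to which the block was fitted, a limit of every p-value given with the block.

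Named members are the 2 most abundant of each family, those with an unadjusted p under 0.05 and those called by any tool. Other genes come from the lists, up to 4 per list with an unadjusted p under 0.05, plus Nfe2l2, Nr1i2, Nr1i3 and Ahr. Shared windows were exact matches of 100 bases between GENCODE M21 transcripts, and promoters came from RefSeq (GRCm38.p6). Because the reference is of an older build than the one named, gene coordinates of the data are not given. Of the list of regulators, 1 item is not reported here.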

Additional observations from a re-analysis of the deposited data

How the results depend on the processing

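Of 384 fold changes of the 24 named members under 16 alternatives, 367 kept their sign and side of the threshold, 15 changed sign and 2 passed the threshold. Those 2 were Ugt1a9 with the replicate block and Gsta3 by DESeq2, and each raised the count of members called lower from 0 to 1. The block changed no other call of a member. The runs without trend, with the block and with other filters keep each fold change as it is, so no sign could change there. The main fit called 0.00715% of all tested genes higher and 0% lower, so the side of the threshold also had little room to change. The count of 367 therefore overstates stability. At an unadjusted p under 0.05 the count of higher members was 2 by DESeq2 (6.25% of all tested genes), 2 with no filter (4.45%) and 2 with plain library sizes (4.49%), and 1 to 4 when single libraries were left out (3.3% to 8.03%). The count of lower members was 0 to 10 when single libraries were left out (3.88% to 7.14%). Members above all controls numbered 1 with quantile normalization (6.59%) and 2 to 9 without single libraries (9.77% to 17.8%). Members below all controls numbered 5 with plain library sizes (10%), 9 with quantile normalization (12.4%) and 3 to 13 without single libraries (13.8% to 16.6%). Leaving out a library makes non-overlap more common among all genes. The median fold change was -0.11 to -0.016 without single libraries. Quantile normalization gave -0.017 for Ugt1a1 and -0.0508 for Gstz1. Leaving out single libraries gave ranges across 0: Ugt2b36 -0.20 to 0.0101, Ugt2b5 -0.28 to 0.0248, Ugt3a1 -0.14 to 0.0532, Sult1a1 -0.11 to 0.0032, Sult2a8 -0.0006 to 0.53, Gstm1 -0.35 to 0.0285, Gstp1 -0.58 to 0.26, Gstk1 -0.0457 to 0.0184 and Gstz1 -0.0286 to 0.13. The cause of these changes was not tested. With plain library sizes, family sums moved by less than their spread between mice. They also did so without single libraries, but with 3 mice per group this measure could not give another outcome. The runs without single libraries are therefore no check of the family sums. Depth limits the 10 untested genes, where single reads move the values.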
